A study of Mus musculus with 12 samples.

Results

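Reactive astrocyte genes were followed in lysolecithin-injured spinal cord white matter of young and middle-aged mice. The group holds 10 genes of the 46078 in the table of counts, namely Gfap, Vim, Nes, Serpina3n, Lcn2, Steap4, S1pr3, Osmr, Cd44 and Stat3. Each was found as the row whose Ensembl gene carries that symbol, and all 10 were expressed highly enough to be tested. C57Bl6 mice, with no allele or transgene named, were young (6 weeks) or middle-aged (8 months), ages that the study's methods give and the sample labels only put in words. White matter of the ventrolateral spinal cord was cut out by laser capture microdissection from naïve mice or 72 h after a local injection of lysolecithin, a detergent-like lipid that strips myelin from axons. Naïve and injured mice of both ages make 4 groups, each with 3 libraries of tissue pooled from 5 mice, whose RNA was amplified. Naïve mice received no injection, so the effect of lysolecithin and that of the injection cannot be told apart. The sources do not say whether the 3 pools of a group hold different mice, so p-values measure the spread between these pools.

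Astrocytes answer damage to the central nervous system by reactive astrogliosis, in which they enlarge their intermediate filament skeleton and switch on secreted and surface proteins. The filament proteins Gfap, vimentin and nestin are the classical marks of the state, and Serpina3n, Lcn2, Steap4, S1pr3, Osmr and Cd44 belong to the set that many kinds of injury share. Stat3, activated by cytokines that signal through the gp130 receptor, is a main transcription factor of astrogliosis and binds sites of the form TTCNNNGAA. Several of these genes are not restricted to astrocytes: Vim and Cd44 are also made by macrophages, fibroblasts and endothelial cells, and Lcn2 by neutrophils. In bulk tissue, a change in the number of cells of a type and a change in RNA per cell cannot be told apart.

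Stat3 is itself a member, and TTCNNNGAA is the form of site that it binds. The promoters of the 2 members that hold this STAT motif are shown. They come from RefSeq (GRCm38.p6), in which all 10 members were matched, and run 5′ to 3′ on the gene's strand over the 250 bases before the start, or on to the end of a match that crosses the start. Capitals mark the motif. The Gfap region is chr11:102897194-102897450 on the minus strand, and the Steap4 region is chr5:7960222-7960471 on the plus strand.
Gfap: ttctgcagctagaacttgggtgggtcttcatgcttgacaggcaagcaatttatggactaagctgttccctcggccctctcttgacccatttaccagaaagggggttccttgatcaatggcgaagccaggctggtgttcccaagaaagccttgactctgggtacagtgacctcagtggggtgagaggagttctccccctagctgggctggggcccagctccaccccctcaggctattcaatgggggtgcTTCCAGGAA
Steap4: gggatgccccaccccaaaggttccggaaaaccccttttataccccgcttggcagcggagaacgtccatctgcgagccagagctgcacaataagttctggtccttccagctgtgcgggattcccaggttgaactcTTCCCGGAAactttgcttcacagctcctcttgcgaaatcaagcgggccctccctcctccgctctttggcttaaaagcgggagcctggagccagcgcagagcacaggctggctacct
The match in Gfap starts 2 bases before the annotated start and crosses it, and the match in Steap4 starts 116 bases before it. The motif reads the same on both strands, and 8.47% of 27025 promoters of the same 300 bases (250 before to 50 after the start) hold it. The AP-1 motif TGANTCA was found only in Osmr among the members (7.93% of all promoters), and TATAAA, on either strand, in Vim and Steap4 (14.2%). A match is a description of these letters, not a measured binding site.

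Injury raised 9 of the 10 genes and lowered Gfap at both ages. In young mice all 10 passed the test (edgeR's quasi-likelihood test, Benjamini-Hochberg adjusted p under 0.05 over 15866 genes), where 54.6% of all genes tested did (28.3% higher and 26.3% lower). In middle-aged mice all 10 passed too, with the same 9 higher and Gfap lower, against a background of 58.5% (29.2% higher and 29.3% lower). The injured pools did not overlap the naïve pools of the same age for any of the 10 genes, which held for 67.2% of all genes in young and 61.1% in middle-aged mice. The median log2 fold change of the members was 2.94 in young and 2.17 in middle-aged mice, beside medians over all genes of 0.00 and -0.03. All 20 calls held in every other scaling, filter and tool tried and without any 1 pool.

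**Figure D1:**
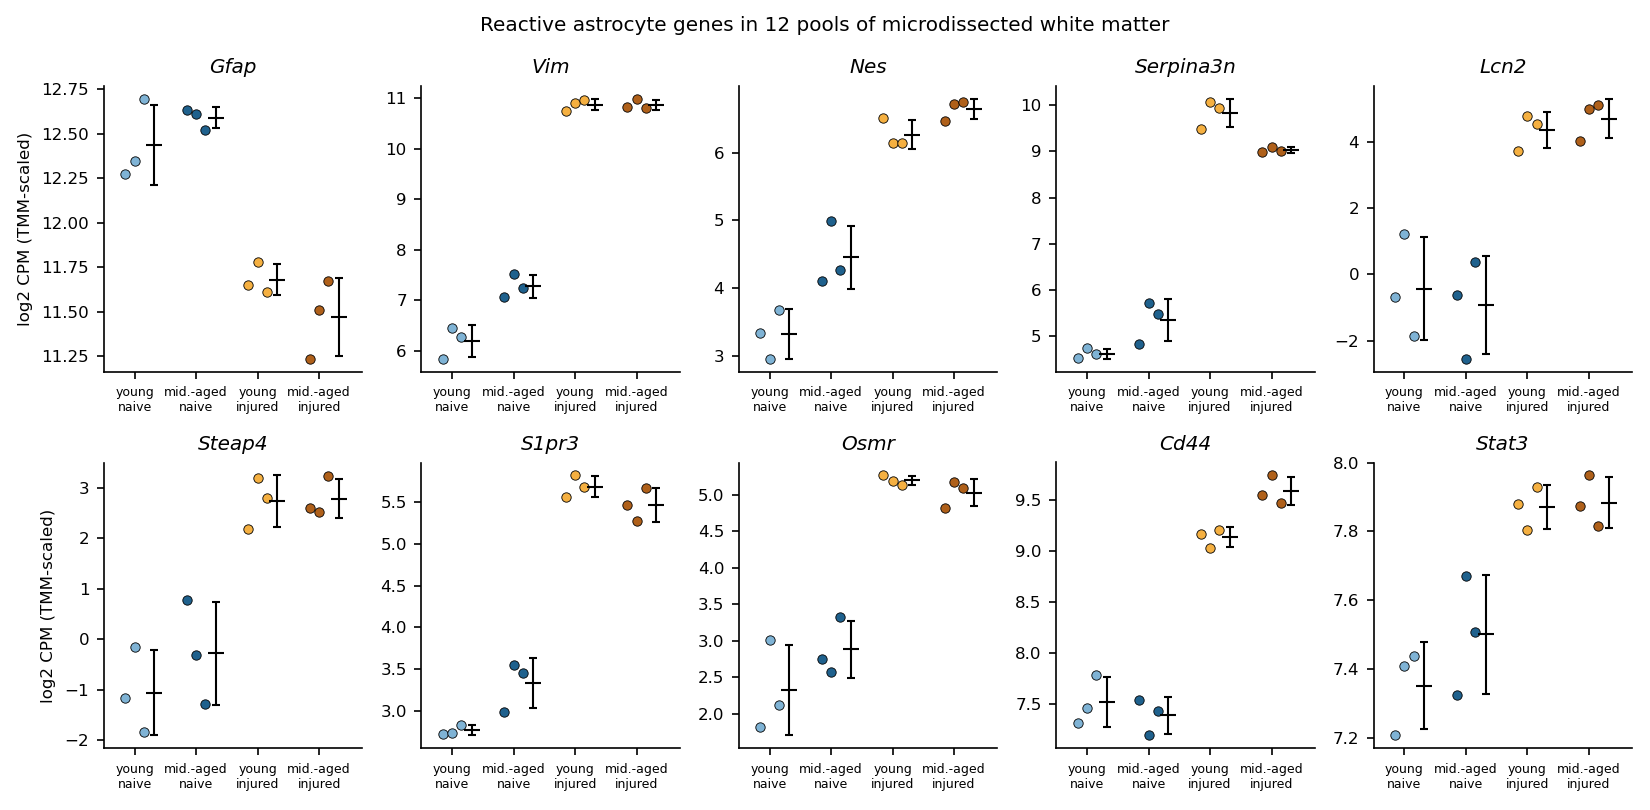
Level of each of the 10 genes in every pool, as log2 CPM (a gene's share of its library's counts, after TMM scaling) on the vertical axis, with the 4 groups along the horizontal axis. Circles are pools, and the dash with whiskers is the mean ± SD of 3 pools. In every panel except that of Gfap the injured pools lie above the naïve pools, and for Gfap they lie below.

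Gfap (ENSMUSG00000020932, chr11:102887336-102900912 in GRCm38, minus strand), the main filament protein of astrocytes, was the most abundant member in every group. The young naïve pools held 4954, 5203 and 6630 CPM and the young injured pools 3216, 3515 and 3126 CPM. The middle-aged naïve pools held 6359, 6256 and 5881 CPM and the middle-aged injured pools 2412, 2919.9 and 3259.7 CPM. Every injured pool was lower than every naïve pool at both ages. The log2 fold change was -0.77 (SE 0.14, edgeR adjusted p = 0.00026) in young and -1.11 (SE 0.14, edgeR adjusted p = 8.4e-06) in middle-aged mice, so that 58.7% and 46.5% of the naïve level remained. The direction was the same in every alternative, between -0.85 and -0.57 in young mice and between -1.20 and -0.99 at middle age.

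Vim (ENSMUSG00000026728, chr2:13573927-13582826, plus strand) encodes vimentin, the filament protein that is co-assembled with Gfap. It rose from 57.4, 87.7 and 77.6 CPM in young naïve pools to 1714, 1914 and 1994 CPM in young injured pools. In middle-aged mice it rose from 134, 183 and 152 CPM to 1807, 2014 and 1789 CPM. The injured levels of the 2 ages overlapped while the naïve levels did not. Naïve pools without overlap between ages made up 17.1% of all genes. The rise was 25.2-fold (log2 4.66, SE 0.18, edgeR adjusted p = 1.1e-10) in young and 11.95-fold (log2 3.58, SE 0.17, edgeR adjusted p = 6.5e-10) in middle-aged mice.

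Nes (ENSMUSG00000004891, chr3:87971078-87980451, plus strand) encodes nestin, a filament protein of neural progenitors that reactive astrocytes make again. Its pools went from 9.93, 7.61 and 12.7 CPM to 91.1, 70.5 and 70.4 CPM in young mice, and from 17.1, 31.6 and 19.1 CPM to 88.6, 105 and 107 CPM in middle-aged mice. Naïve and injured pools were well apart at both ages. The log2 fold changes were 2.94 (SE 0.24, edgeR adjusted p = 1.4e-07) and 2.15 (SE 0.23, edgeR adjusted p = 1.6e-06).

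Serpina3n (ENSMUSG00000021091, chr12:104406729-104414329, plus strand), a secreted inhibitor of serine proteases, had the highest fitted fold change of the members in young mice with all pools, although Lcn2 was higher without young naïve pool 2. Its 3 young naïve pools held 22.8, 26.6 and 24.2 CPM and the young injured pools 719.6, 1068 and 986 CPM. The middle-aged naïve pools held 28.5, 52.8 and 44.5 CPM and the middle-aged injured pools 505, 545 and 518 CPM. The 3 middle-aged injured pools were all below the 3 young injured pools, and the middle-aged naïve pools were all above the young naïve pools. The ages did not overlap, in either direction, for 23.3% of all genes in injured and 17.1% in naïve mice. Injury raised Serpina3n 37.7-fold (log2 5.24, SE 0.22, edgeR adjusted p = 2.8e-10) in young and 12.5-fold (log2 3.64, SE 0.21, edgeR adjusted p = 3.7e-09) in middle-aged mice. Of the 31-base stretches of its transcript, 21.6% also occur in Serpina3g, Serpina3f or Serpina3c, so part of its reads could be counted for a neighbour. Those paralogs stayed low, with at most 86 counts in a pool for Serpina3c, 59 for Serpina3g and 9 for Serpina3f, against 5997 to 13783 counts of Serpina3n in injured pools.

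Lcn2 (ENSMUSG00000026822, chr2:32384633-32388252, minus strand) encodes lipocalin 2, a secreted acute-phase protein that binds bacterial iron carriers. The counts in young mice were 5, 24 and 1 in naïve pools and 178, 353 and 302 in injured pools. In middle-aged mice they were 5, 0 and 14 in naïve and 193, 391 and 392 in injured pools. The gene was at or near the limit of detection (3 counts per pool, 0.234 to 0.305 CPM) in some naïve pools and well above it in every injured pool. Its log2 fold change was 4.46 (SE 0.65, edgeR adjusted p = 4.5e-05) in young and 5.53 (SE 0.70, edgeR adjusted p = 9.7e-06) in middle-aged mice. A few naïve counts set these sizes: without young naïve pool 2 the young value was 6.11, and without middle-aged naïve pool 3 the middle-aged value was 6.70.

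Neutrophils are a known source of Lcn2, and most of the 11 neutrophil markers listed had few counts. Elane was at 0 in all 12 pools, Ly6g, Retnlg, Mpo, Camp and Ngp did not exceed 6 counts in any pool, and only 3 of the 11 neutrophil markers (Csf3r, Cxcr2 and S100a8) could be tested. Of these 3, 2 rose in young and 3 in middle-aged mice, beside 28.3% and 29.2% of all genes. The highest counts in a pool were 18 for Cxcr2, 13 for S100a9 and 10 for Ltf. S100a8 was at 0 in the 6 naïve pools and had 10 to 23 counts in the injured pools. The summed level of the 11 markers in naïve pools was 4.80 to 8.28 CPM (young) and 12.4 to 12.9 CPM (middle-aged), and in injured pools 57.5 to 60.4 CPM (young) and 51.0 to 71.0 CPM (middle-aged). Most of this sum was Csf3r, which other myeloid cells also make, at 55.6 ± 2.42 CPM in young injured and 58.1 ± 10.1 CPM in middle-aged injured mice (SD, n = 3). Their part in the Lcn2 result was not tested.

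Steap4 (ENSMUSG00000012428, chr5:7960457-7982213, plus strand), a membrane metalloreductase, had few counts in every pool. The counts were 3, 8 and 1 in young naïve and 60, 117 and 91 in young injured pools. They were 16, 6 and 3 in middle-aged naïve and 71, 70 and 107 in middle-aged injured pools. No naïve pool reached the lowest injured pool. The log2 fold changes were 4.12 (SE 0.61, edgeR adjusted p = 4.8e-05) in young and 3.12 (SE 0.55, edgeR adjusted p = 0.00021) in middle-aged mice, and became 5.04 without young naïve pool 2 and 4.02 without middle-aged naïve pool 1.

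S1pr3 (ENSMUSG00000067586, chr13:51408639-51422797, plus strand) is a receptor for sphingosine-1-phosphate. Its level was 6.47, 6.53 and 6.99 CPM in young naïve and 47.0, 56.1 and 50.9 CPM in young injured pools. In middle-aged mice it was 7.78, 11.5 and 10.8 CPM in naïve and 43.8, 38.3 and 50.5 CPM in injured pools. Naïve levels were higher and injured levels on average lower in the older mice, with overlap of the injured pools. The log2 fold changes were 2.95 (SE 0.18, edgeR adjusted p = 9.7e-09) and 2.14 (SE 0.18, edgeR adjusted p = 1.3e-07). An exon of S1pr3 overlaps Gm32834 on the other strand, and the strand setting of the counting is not given in the sources used here, so reads of the overlap are uncertain.

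Osmr (ENSMUSG00000022146, chr15:6813577-6874969, minus strand), the receptor subunit for oncostatin M that pairs with gp130, rose in the same range. It went from 3.37, 7.89 and 4.19 CPM to 38.2, 36.3 and 34.9 CPM in young mice. In middle-aged mice it went from 6.53, 5.77 and 9.84 CPM to 28.0, 35.8 and 33.8 CPM. The lowest injured pool was well above the highest naïve pool at each age. The log2 fold changes were 2.82 (SE 0.28, edgeR adjusted p = 1.1e-06) and 2.13 (SE 0.27, edgeR adjusted p = 1.0e-05).

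Cd44 (ENSMUSG00000005087, chr2:102811141-102901665, minus strand), the hyaluronan receptor, was already well expressed without injury. The young pools held 158, 176 and 219.6 CPM when naïve and 575, 519 and 589.6 CPM when injured. The middle-aged pools held 186, 146 and 172 CPM when naïve and 749.6, 853 and 709 CPM when injured. The 3 middle-aged injured pools were all above the 3 young injured pools, and injured pools without overlap between ages, in either direction, made up 23.3% of all genes. The rise was 3.04-fold (log2 1.61, SE 0.14, edgeR adjusted p = 2.8e-07) in young and 4.59-fold (log2 2.20, SE 0.14, edgeR adjusted p = 1.3e-08) in middle-aged mice.

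Stat3 (ENSMUSG00000004040, chr11:100885098-100939540, minus strand) changed least in size among the 9 that rose. Young pools held 148, 169.8 and 173 CPM when naïve and 235, 223 and 244 CPM when injured. Middle-aged pools held 160.1, 203 and 182 CPM when naïve and 234, 249 and 225 CPM when injured. The groups did not overlap, but the gaps were small. The rise was 1.43-fold (log2 0.52, SE 0.11, edgeR adjusted p = 0.0014) in young and 1.30-fold (log2 0.38, SE 0.11, edgeR adjusted p = 0.010) in middle-aged mice. Stat3 is regulated in large part by phosphorylation of the protein, which RNA does not show. Its exons overlap Stat5a on the opposite strand, with which it shares part of the 2.36% of its 31-base stretches found in other genes.

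**Figure D2:**
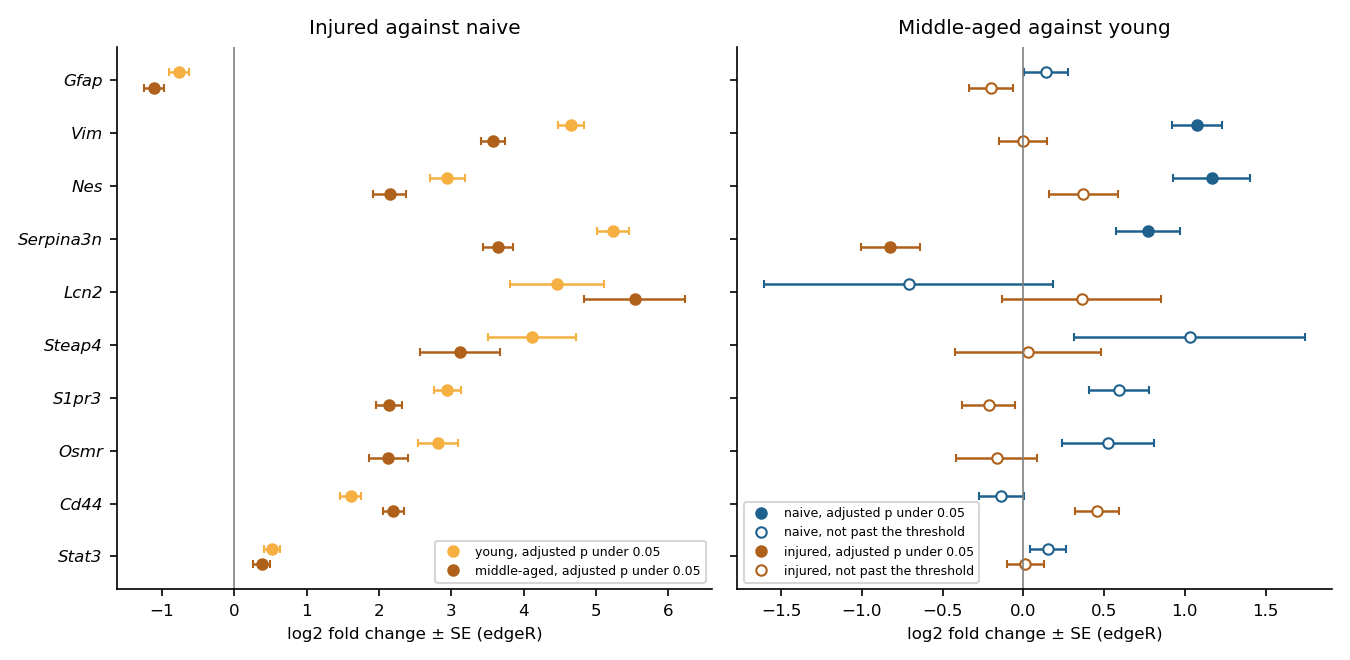
Log2 fold change ± SE from edgeR of each gene by injury at each age (left) and by age in naïve and in injured mice (right). Filled points passed an adjusted p of 0.05 and open points did not. On the left only Gfap lies below 0, at -0.77 and -1.11. On the right the naïve values of Vim, Nes and Serpina3n are filled above 0, and the injured value of Serpina3n is filled below 0.

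The members changed places, while the range of their sum overlapped between naïve and injured pools. Summed over the 10 genes, naïve pools held 5361 to 7149 CPM (young) and 6472 to 6901 CPM (middle-aged), and injured pools 6654 to 7440 CPM (young) and 5891 to 6797 CPM (middle-aged). Gfap made up 92.2% ± 0.66 of the members' counts (SD, n = 3) in young naïve and 91.3% ± 0.77 in middle-aged naïve mice, and 46.5% ± 2.33 and 44.1% ± 3.86 in injured mice. Vim counts were 1.34% ± 0.30 (young) and 2.54% ± 0.41 (middle-aged) of Gfap counts in naïve mice, and 57.2% ± 5.75 (young) and 66.3% ± 10.3 (middle-aged) after injury (SD, n = 3). These ratios within a pool need no scaling and were chosen after the values were seen. The injured and naïve pools did not overlap in either ratio, and the 2-sided exact permutation p was 0.1 at each age, the smallest that 3 pools against 3 allow. This outcome was fixed by the single genes, since every injured pool had less Gfap and more of the other members than every naïve pool of its age. It adds no separate evidence.

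**Figure D3:**
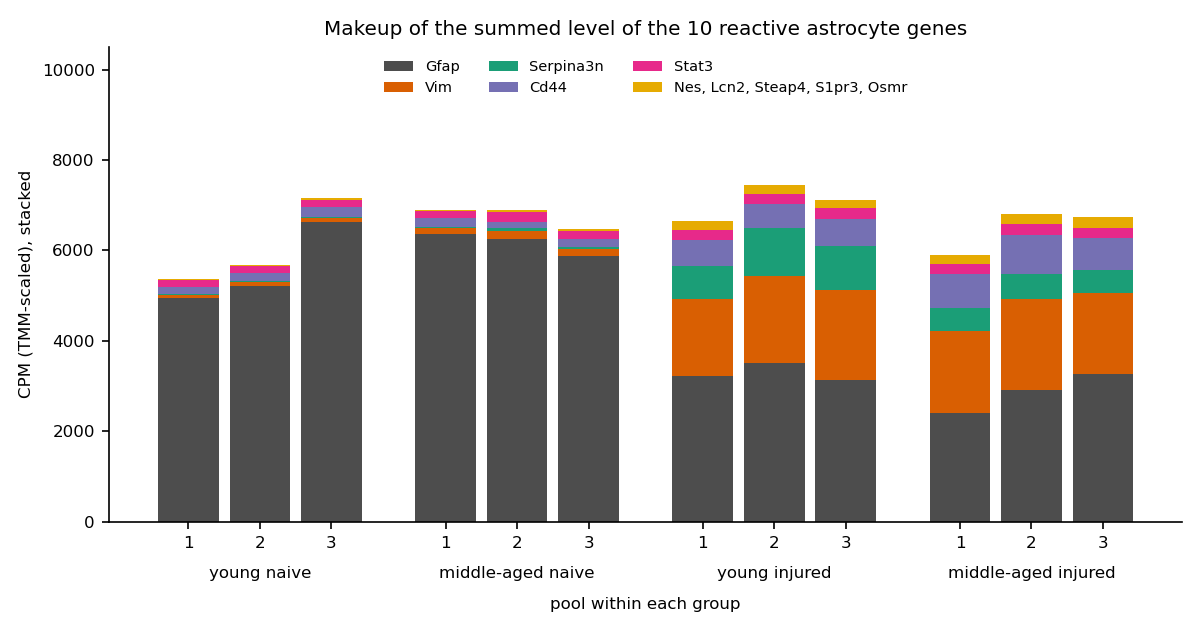
Stacked CPM of the 10 genes in each of the 12 pools, with the pools of each group side by side. The whole bars stay between 5361 and 7440 CPM, while the dark Gfap segment shrinks and the Vim, Serpina3n and Cd44 segments grow in the injured pools.

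Levels can be set side by side between genes only per length of transcript, here as TMM-scaled CPM divided by the kilobases of exon (written FPKM). In young naïve mice Gfap stood at 1327 ± 214 FPKM, followed by Cd44 at 27.2 ± 4.68 and by Stat3, Vim and Serpina3n at 17.2 ± 1.46, 15.7 ± 3.25 and 11.9 ± 0.93, where Vim overlapped both of its neighbours. In young injured mice Gfap was still first at 779 ± 48.3 FPKM, then Serpina3n at 448 ± 88.3 and Vim at 395 ± 30.4, which overlapped each other, then Cd44 at 82.8 ± 5.46. In middle-aged injured mice the order was Gfap at 679 ± 101, Vim at 394 ± 26.4, Serpina3n at 253 ± 9.84 and Cd44 at 114 ± 10.98 FPKM, with no overlap between neighbours. Osmr and Steap4 were last in both injured groups, at 3.01 ± 0.13 and 2.15 ± 0.74 FPKM in young and at 2.68 ± 0.33 and 2.19 ± 0.64 FPKM in middle-aged mice (SD, n = 3), where they overlapped.

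Age without injury was accompanied by higher levels of some members. Vim (log2 1.08, SE 0.16, edgeR adjusted p = 0.0021), Nes (log2 1.17, SE 0.24, edgeR adjusted p = 0.015) and Serpina3n (log2 0.77, SE 0.20, edgeR adjusted p = 0.045) were higher in middle-aged than in young naïve mice. These are 3 of the 10 members, beside 3.8% of all genes called in that comparison (2.02% higher). The pools did not overlap for those 3 and for S1pr3, beside 17.1% of all genes, and S1pr3 had a log2 difference of 0.59 (95% interval 0.20 to 0.99, edgeR adjusted p = 0.096). S1pr3 passed with DESeq2 (adjusted p = 0.049) and without middle-aged naïve pool 1 (edgeR adjusted p = 0.029). Those fits called 1111 and 800 genes in this comparison, against 603 in the main fit. Gfap itself had a log2 difference of 0.14 (95% interval -0.15 to 0.43, edgeR adjusted p = 0.62). The Vim call held in every alternative, with edgeR adjusted p or DESeq2 adjusted p of at most 0.049. The Nes call was lost without young naïve pool 1 (edgeR adjusted p = 0.056), without young naïve pool 2 (0.079) and with only the naïve pools in the fit (0.18). The Serpina3n call was lost with only the naïve pools in the fit (edgeR adjusted p = 0.24) and without any 1 of 10 pools, all but middle-aged naïve pool 1 and young injured pool 1 (edgeR adjusted p from 0.057 to 0.15).

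Markers of other cells differed with age in the same naïve pools, where 2.02% of all genes were called higher and 1.78% lower. With only the naïve pools in the fit, 71 of 14401 genes were called, against 603 of 15866 in the main fit. Of 8 pan-myeloid markers, 6 were higher in middle-aged naïve mice, and their summed level was 99.9 to 134 CPM in young and 157 to 225 CPM in middle-aged pools. In edgeR's test that count was 0 with only the naïve pools in the fit (6 at an unadjusted p under 0.05, and 6 with DESeq2 over all pools) and 2 without young naïve pool 1 or without young naïve pool 2, and it was 4 without middle-aged naïve pool 2. It was also 4 without any 1 young injured pool and without middle-aged injured pool 1 or 2. Of 12 homeostatic astrocyte markers only Sox9, a transcription factor of astrocytes, was called, and it was higher (log2 0.57, SE 0.12, edgeR adjusted p = 0.021). Of 6 oligodendrocyte markers 3 were lower, and their sum was 83480 to 97425 CPM in young and 50693 to 58011 CPM in middle-aged naïve pools, with no overlap. Of 5 cycling cell markers 4 were lower (with only the naïve pools in edgeR's fit, 0 of the 4 that could be tested, all 4 at an unadjusted p under 0.05; 4 with DESeq2 over all pools), with sums of 7.85 to 12.1 CPM and 1.99 to 3.68 CPM. The part of these markers in the age difference of Vim, Nes and Serpina3n was not tested.

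Between injured mice, only Serpina3n passed the test for age. It was lower in middle-aged lesions, at 523 ± 20.3 CPM against 925 ± 182 in young lesions (SD, n = 3; log2 -0.82, SE 0.18, edgeR adjusted p = 0.047). That is 1 of 10 members, beside 1.15% of all genes called (0.908% lower). The pools also did not overlap for Cd44, which was higher in middle-aged lesions by 0.46 on the log2 scale (95% interval 0.17 to 0.75, edgeR adjusted p = 0.15); pools that did not overlap made up 23.3% of all genes. Vim had a log2 difference of -0.0030 (95% interval -0.33 to 0.32) and Gfap of -0.20 (95% interval -0.49 to 0.09). The Serpina3n call was at the edge of the threshold: it was lost with RLE size factors (edgeR adjusted p = 0.052) and without any 1 of 9 pools, all but middle-aged naïve pools 1 and 2 and young injured pool 1 (edgeR adjusted p from 0.060 to 0.24). Cd44 passed when only the injured pools were in the fit (edgeR adjusted p = 0.024). That fit called 818 of 15048 genes, against 182 of 15866 in the main fit. In the same lesions 5 of 6 oligodendrocyte markers were lower at middle age, with sums of 7630 to 12186 CPM against 18021 to 20015 CPM. That count was 2 without young injured pool 3, middle-aged injured pool 1 or middle-aged injured pool 2, and 3 without young injured pool 2. Of 6 fibroblast and meningeal markers, 2 were lower. Pan-myeloid sums went the other way, at 2010.9 to 2593 CPM at middle age against 1959 to 2010.5 CPM, with 0 of 8 called. Of 12 homeostatic astrocyte markers 1 was called lower, and the log2 differences of all 12 were below 0 (-0.78 to -0.07, median -0.42). Their sums overlapped, at 2578 to 3717 CPM at middle age against 3506 to 4161 CPM in young lesions. With only the injured pools in edgeR's fit 3 of the 12 were called, and 9 were at an unadjusted p under 0.05. The part of these markers in the Serpina3n difference was not tested.

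The injury response of Serpina3n differed between ages in the test of that difference. Its log2 fold change by injury was smaller at middle age, with a difference of -1.60 (SE 0.27, edgeR adjusted p = 0.034). It was the only member called, where 0.139% of all genes were (0.0567% higher and 0.0819% lower). Vim had a difference of -1.08 (SE 0.22, edgeR adjusted p = 0.068) and passed with library totals alone, with DESeq2, with all genes kept, under a replicate block (edgeR adjusted p = 0.033) and without middle-aged naïve pool 1. In that order, those fits called 31, 254, 329, 31 and 37 genes, against 22 in the main fit. The Serpina3n call was lost without any 1 of the same 9 pools as above (edgeR adjusted p from 0.061 to 0.13). The injury and age comparisons share their pools: a high naïve level in middle-aged mice enters both the age difference and the smaller fold change. For the remaining members the values lay between -1.001 for Steap4 and 1.07 for Lcn2, and none passed.

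Ligands of gp130, which act upstream of Stat3, had low counts and some of them rose. Osm, which encodes oncostatin M, the ligand of Osmr, had 0 to 2 counts in the 6 naïve pools. It had 61, 63 and 64 counts in young injured and 67, 103 and 124 in middle-aged injured pools (edgeR adjusted p = 3.3e-07 and 1.7e-07). Lif had 13, 15 and 31 counts in young naïve and 71, 78 and 120 in young injured pools, and 12, 16 and 53 against 136, 181 and 330 in middle-aged mice (log2 1.84, SE 0.47, and 2.88, SE 0.45). Clcf1 also rose at both ages (log2 2.42, SE 0.47, and 3.04, SE 0.46). Il6 passed only in middle-aged mice (log2 2.81, SE 1.02, edgeR adjusted p = 0.029), where pools of 0, 2 and 7 counts went to 11, 14 and 49, against 0, 10 and 11 to 6, 16 and 20 counts in young mice (log2 0.68, SE 0.94), a difference between ages that did not pass the test. Il11 and Ctf1 passed at neither age, with at most 50 and 22 counts in a pool, and Cntf, at 3 counts or fewer in every pool, was not tested. In all, 3 of 6 ligands tested rose in young and 4 of 6 in middle-aged mice, beside 28.3% and 29.2% of all genes.

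Of 6 receptors of the family, 2, Osmr among them, rose and 2 fell at each age, shares near those of all genes (28.3% higher and 26.3% lower in young, 29.2% and 29.3% at middle age). Beside Osmr, Il6ra rose (log2 1.98, SE 0.29, in young and 0.90, SE 0.27, in middle-aged mice). Young naïve pools had 41 to 78 and young injured pools 244 to 321 counts of it, against 82 to 211 and 272 to 331 counts at middle age. Lifr, the receptor subunit for leukaemia inhibitory factor, fell in young mice by 1.25 and in middle-aged mice by 1.32 on the log2 scale (SE 0.13 at both ages), with 1142 to 1658 counts in young naïve and 678 to 848 in young injured pools. Cntfr, the subunit for ciliary neurotrophic factor, fell by 1.60 (SE 0.29) and by 1.53 (SE 0.31), with 76 to 110 counts in young naïve and 38 to 42 in young injured pools. Il6st, which encodes gp130 itself, had 1883 to 1985 counts in young naïve and 2850 to 3520 in young injured pools and did not pass (log2 0.32, SE 0.13, edgeR adjusted p = 0.056), nor did it in middle-aged mice (log2 0.08, SE 0.13). Il11ra1 did not pass at either age, at 68 to 141 counts in all pools.

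**Figure D4:**
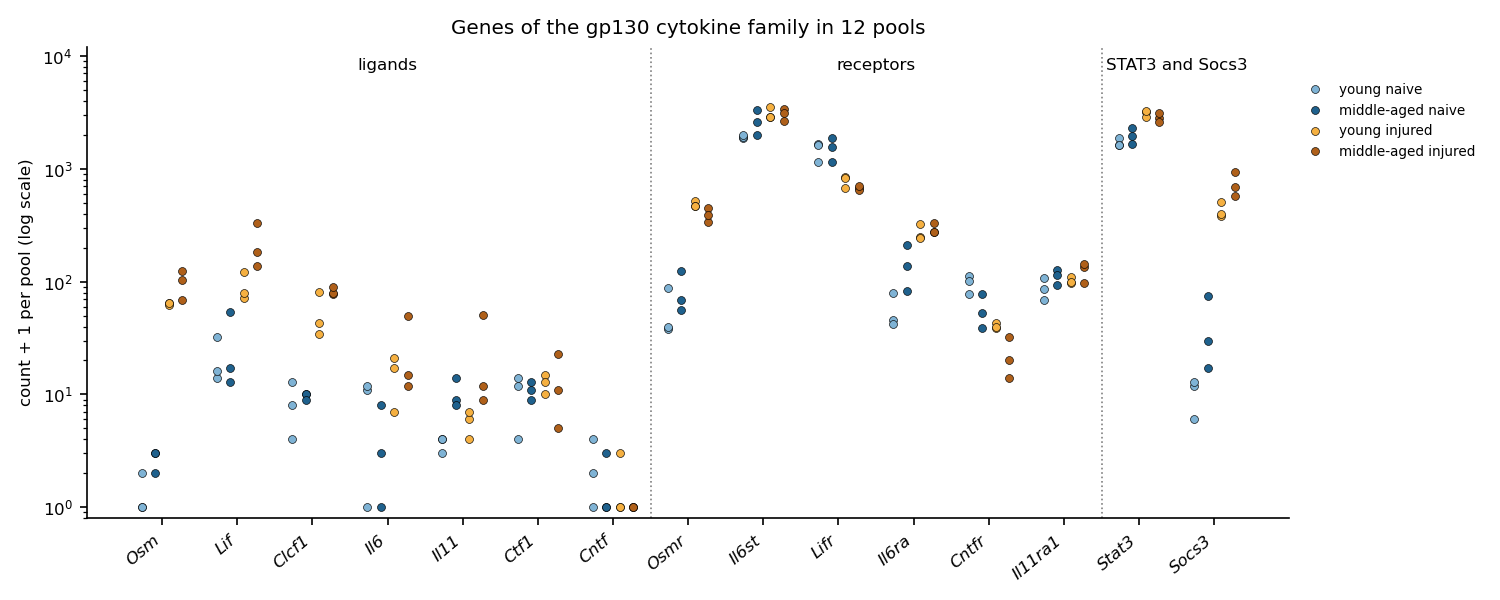
Counts of gp130 ligands, receptors, Stat3 and Socs3 in every pool, drawn as count + 1 on a log axis, with the 4 groups side by side within each gene. Osm lies at 0 to 2 counts in naïve pools and at 61 to 124 in injured pools, Osmr and Socs3 rise with it, and Lifr and Cntfr go down.

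Inside the cell, Socs3, the feedback inhibitor that Stat3 itself switches on, had a larger log2 fold change than Stat3. It had 5, 11 and 12 counts in young naïve and 381, 394 and 503 in young injured pools. In middle-aged mice it had 16, 29 and 73 counts when naïve and 568, 688 and 939 when injured. The log2 fold changes were 5.15 (SE 0.49, edgeR adjusted p = 6.3e-07) and 4.004 (SE 0.41, edgeR adjusted p = 1.3e-06). Of 8 tested genes of the kinase and feedback list, Stat3 and Socs3 included, 5 rose at each age, beside 28.3% (young) and 29.2% (middle-aged) of all genes. The others were Ptpn6, a phosphatase of blood cells (log2 4.39, SE 0.20, in young mice), and Tyk2 and Cish, which are named after their values were seen. Jak1, a kinase of the receptor, and Pias3, an inhibitor of Stat3, did not pass, with log2 values of 0.17 (SE 0.12) and -0.37 (SE 0.21) in young mice.

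Among partners of the surface and secreted members, those that rose most included Spp1, which encodes osteopontin, a ligand of Cd44, and Has2, which makes hyaluronan, the other ligand. Spp1 had 611 to 2002 counts in young naïve and 108147 to 128223 in young injured pools (log2 6.11, SE 0.32, and 6.48, SE 0.32, at middle age). Has2 had log2 fold changes of 2.76 (SE 0.63) and 3.78 (SE 0.67). Slc22a17, a receptor for lipocalin 2, fell by 1.78 (SE 0.22) and 2.09 (SE 0.23) on the log2 scale. Steap2, a relative of Steap4, fell by 0.95 (SE 0.33) in young mice and had a log2 value of -0.03 (SE 0.33) in middle-aged mice. Of 12 partners tested, 6 rose and 3 fell in young mice, and 8 rose and 1 fell in middle-aged mice. Of all genes, 28.3% were higher and 26.3% lower in young mice, and 29.2% and 29.3% at middle age.

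Homeostatic astrocyte genes went the other way from the 9 members that rose. Of 12 such markers, 11 fell at each age, beside 26.3% (young) and 29.3% (middle-aged) of all genes. Their medians were -1.37 and -1.73 on the log2 scale, beside 0.00 and -0.03 over all genes. Aldoc, a glycolytic enzyme, fell by 2.57 (SE 0.13) in young and 3.18 (SE 0.13) in middle-aged mice, and the calcium-binding protein S100b fell by 2.19 (SE 0.18) and 2.83 (SE 0.18). Sox9 fell by 0.42 (SE 0.12) and 1.09 (SE 0.12), and Aldh1l1, a folate enzyme, had log2 values of -0.13 (SE 0.15) and -0.17 (SE 0.15) and did not pass. Their summed level in naïve pools was 11011 to 11190.0 CPM (young) and 9646 to 11133 CPM (middle-aged), and in injured pools 3506 to 4161 CPM (young) and 2578 to 3717 CPM (middle-aged). Gfap counts were 50.6% ± 8.48 of the summed counts of these markers in young naïve and 60.2% ± 4.09 in middle-aged naïve mice, and 84.6% ± 7.08 and 97.5% ± 12.3 in injured mice (SD, n = 3). The ratio, also chosen after the values were seen, was higher after injury, with no overlap of naïve and injured pools (exact permutation p = 0.1 at each age, 2-sided, the smallest possible). Its direction depends on the markers: Gfap fell by 0.77 and 1.11 on the log2 scale, more than Aldh1l1 at both ages and Sox9 in young mice. Abundant genes dominate the sum, with up to 26779 counts in a pool for Slc1a2 against 660 for Aldh1l1.

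Further genes listed for reactive astrocytes mostly rose in this bulk tissue, where the cells that made their RNA were not identified. Of 7 other pan-reactive genes, 5 rose and 1 fell in young mice and 4 rose and 1 fell in middle-aged mice. Of all genes, 28.3% rose and 26.3% fell in young mice, and 29.2% and 29.3% at middle age. Timp1, an inhibitor of matrix proteases, had 2 to 8 counts in young naïve and 374 to 417 in young injured pools (log2 5.83, SE 0.34, and 5.88, SE 0.33). The gene that fell was Synm, which encodes the filament protein synemin (log2 -1.03, SE 0.12, and -1.33, SE 0.12), as Gfap did. The chemokine gene Cxcl10 had 0, 1 and 8 counts in young naïve and 148, 321 and 345 in young injured pools (log2 6.08, SE 0.94). At middle age it had 47, 79 and 306 counts when naïve and 81, 192 and 193 when injured (log2 -0.10, SE 0.61, edgeR adjusted p = 0.90), and the difference between ages did not pass (edgeR adjusted p = 0.053). Of 11 tested genes first linked to inflammatory (LPS) astrocytes, 10 rose in young and 9 in middle-aged mice, led in young mice by the proteasome subunit Psmb8 (log2 3.82, SE 0.27). Of 12 genes first linked to ischaemic astrocytes, 10 and 12 rose, led by the transglutaminase Tgm1, which had 0 to 3 counts in young naïve and 802 to 1357 in young injured pools. The medians were 2.75 and 1.60 for the first list and 3.00 and 3.38 for the second, beside 0.00 and -0.03 over all genes.

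**Figure D5:**
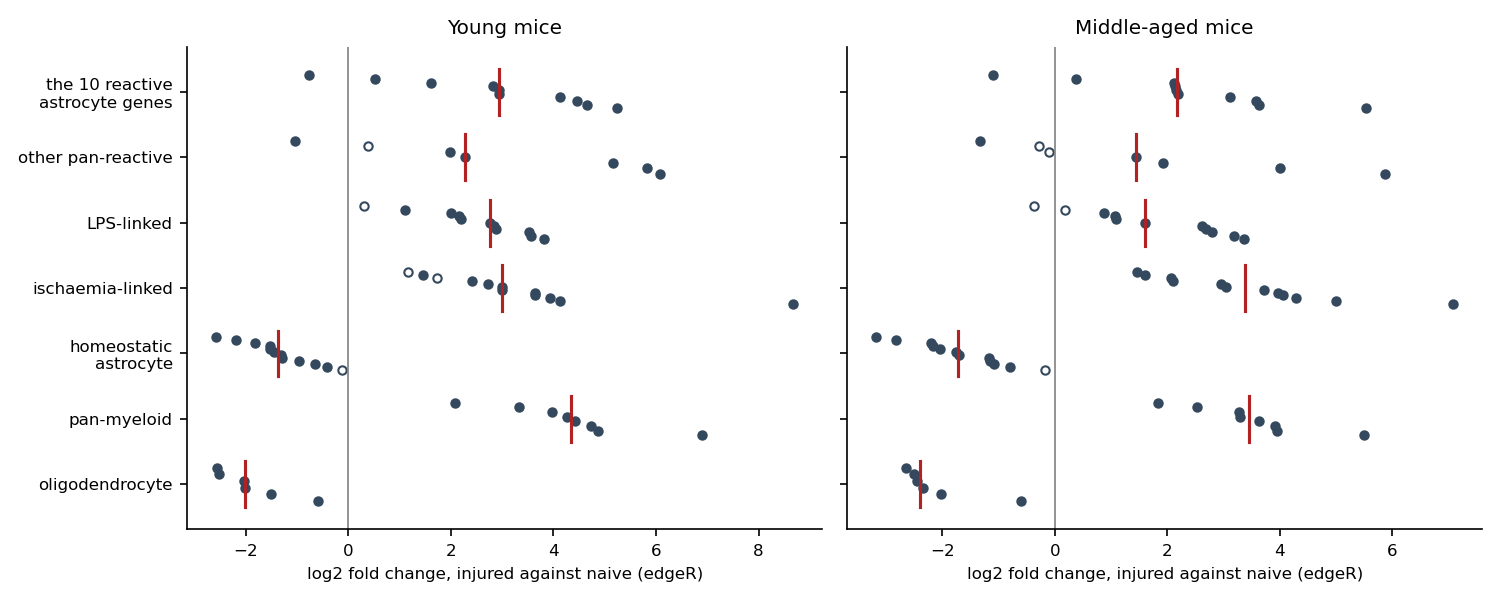
Log2 fold change by injury of every tested gene in 7 lists, for young (left) and middle-aged mice (right), from edgeR. Filled points passed an adjusted p of 0.05, open points did not, and red bars are list medians. The reactive lists and the pan-myeloid list lie mostly above 0, with Gfap and Synm below on both sides. On the right, some further reactive genes that did not pass also lie below 0, such as Cxcl10 and the lowest LPS-linked gene (-0.36). The homeostatic astrocyte and oligodendrocyte lists lie below 0.

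Other cell types moved with injury beside these genes. All 8 pan-myeloid markers rose at both ages (medians 4.34 and 3.46), with summed levels of 1959 to 2011 CPM in young injured and 2011 to 2593 CPM in middle-aged injured pools. All 6 fibroblast and meningeal markers tested rose in young and 5 of 6 in middle-aged mice, to sums of 906 to 1426 CPM and 404 to 820 CPM from at most 81.1 and 109 CPM when naïve. Of 7 endothelial markers, 2 were higher and 2 lower at each age. These shares are near those of all genes (28.3% higher and 26.3% lower in young, 29.2% and 29.3% at middle age). All 6 oligodendrocyte markers fell (medians -2.02 and -2.39). Vim counts were 65.7% ± 13.7 (young) and 82.3% ± 2.63 (middle-aged) of the summed pan-myeloid counts in naïve mice, and 94.6% ± 6.20 (young) and 78.9% ± 9.47 (middle-aged) after injury (SD, n = 3). In young mice this ratio, chosen in the same way, was higher after injury with no overlap (2-sided exact permutation p = 0.1, the smallest possible), and at middle age the pools overlapped (exact permutation p = 0.6). The part of these cells in the rise of Vim, Cd44, Osmr and the other shared members, and of the further reactive genes, was not tested.

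The genes most like each member over the 12 pools were found by the root mean square difference of log2 CPM after centring each gene, over 15866 genes; a value near 0 means the same profile, and all pools share the injury contrast. Nearest to Gfap was Pea15a (0.10), a phosphoprotein gene abundant in astrocytes, then Pogk (0.12). Nearest to Vim were Lcp2 (0.15), a signalling adaptor of blood cells, and Ctsz (0.23), a lysosomal protease. Serpina3n was nearest to Fcrls (0.32) and Ctsd (0.38), Nes to Xlr (0.19) and Myc (0.20), and S1pr3 to Cd109 (0.11), 1 of the ischaemia-linked genes, and Golm1 (0.20). Osmr was nearest to Mertk (0.26), a receptor for engulfing dead cells, and Zc3hav1 (0.27), Cd44 to Btg1 (0.12) and Mcl1 (0.13), and Stat3 to Rela (0.07), a subunit of NF-kB, and Tex261 (0.09). Lcn2 and Steap4, with few naïve counts, had no close neighbour: Rbm47 and Slc16a10 were at 0.66 from Lcn2, and Icam1 (0.46) and Spdl1 (0.49) were nearest to Steap4. Among the members, the closest pairs were S1pr3 and Osmr (0.35), Nes and S1pr3 (0.38) and Vim and Serpina3n (0.38).

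The 12 libraries held 9834447 to 12807437 counts each, and the detection limits given in counts cover counting error only. Replicate pools of 1 group differed by more than sampling noise (chi-square per degree of freedom 7.48 to 35.7), so none was treated as a library deposited more than once. This compares the pools with counting noise alone and does not show that they hold different mice. The 6 oligodendrocyte markers summed to at least 50693 CPM in every naïve pool, which alone cannot tell white matter from other spinal cord tissue. The 6 neuron markers summed to 1264 to 3278 CPM in young naïve and 1977 to 2480 CPM in middle-aged naïve pools. In injured pools they summed to 443 to 666 CPM (young) and 537 to 638 CPM (middle-aged). Scaling by library totals alone moved the median of all genes in the young injury comparison by 0.20 on the log2 scale, and no member's injury effect changed direction under it at either age.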

How the data were processed

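RNA from 12 pools was sequenced by the study on an Illumina NextSeq500 after amplification. The authors checked reads with FastQC 0.11.4, aligned them with TopHat 2.0.10, which ran bowtie 1.1.2, to GRCm38, and deposited raw counts per gene made with featureCounts; the annotation release and strand setting are not given in the sources used here. Groups and replicate numbers come from the sample labels.

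The test was that of edgeR 4.0.16 under R 4.3.3 (TMM, filterByExpr, glmQLFit and glmQLFTest, 1 coefficient per group over all 12 pools, no covariate), with Benjamini-Hochberg adjustment over 15866 genes. Each SE follows from the log2 fold change and its F statistic (size over root F), and log2 CPM used a prior count of 2. Of 46078 identifiers, 45143 had a symbol and position in GENCODE M21. The study's methods used DESeq2; here DESeq2 1.42.0, other scalings and filters, only the pools compared, a replicate block and each pool left out were alternatives. The edgeR fit was tested on simulated counts for the young injury comparison, with fewer changed genes than were called in the data. The members and lists were chosen with earlier results of these data known. All 10 members, all gp130 ligands and receptors, up to 2 genes with the highest and lowest log2 fold change by injury in young mice of each list, and the 2 genes most like each member could be named. Genes called with age, such as Sox9, were named after their values were seen. No value here comes from the study's other experiments.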

Additional observations from a re-analysis of the deposited data

Results flagged for a closer look

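The injury effect on Serpina3n differed between ages by the test of the difference itself, at -1.60 on the log2 scale (SE 0.27, edgeR adjusted p = 0.034, n = 3 pools in each group). All 3 middle-aged injured pools were below all 3 young injured pools, and all 3 middle-aged naïve pools were above all 3 young naïve pools. The ages did not overlap, in either direction, for 23.3% of all genes in injured and 17.1% in naïve mice. The call was lost without any 1 of 9 of the 12 pools (edgeR adjusted p from 0.061 to 0.13). Beside it, oligodendrocyte markers summed to 7630 to 12186 CPM in middle-aged injured and 18021 to 20015 CPM in young injured pools. Without injury they were also lower, at 50693 to 58011 CPM in middle-aged and 83480 to 97425 CPM in young naïve pools. Of these 6 markers, 0 were called in the difference of injury effects. The fibroblast and meningeal markers summed to 404 to 820 CPM in middle-aged injured and 906 to 1426 CPM in young injured pools. Homeostatic astrocyte markers summed to 2578 to 3717 CPM in middle-aged injured and 3506 to 4161 CPM in young injured pools, which overlap. The part of these lists in the difference was not tested.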

How the results depend on the processing

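The injury calls of all 10 members at both ages held under each alternative. The age calls did not. In naïve mice, 3 members were called, 1 of the 8 that could be tested with only the naïve pools in the fit, and 1 to 4 with a pool left out. Over all genes, 603 of 15866 were called in the main fit and 71 of 14401 with only the naïve pools. In injured mice, 1 was called, 0 with RLE size factors in edgeR (2 at an unadjusted p under 0.05; 1 with DESeq2), 2 with only the injured pools, and 0 to 1 with a pool left out. Genes called in all were 182 in the main fit, 174 with RLE size factors, 458 with DESeq2 and 818 of 15048 with only the injured pools. For the difference of injury effects, 1 was called, 2 with library totals alone, DESeq2, no filter or a replicate block, and 0 to 2 with a pool left out. There, 22 of all genes were called in the main fit and 31 with library totals alone. The number was 254 with DESeq2, 329 of 27172 with no filter and 31 with the block. With the replicate number as a block, Vim joined Serpina3n in that comparison (log2 -1.08, edgeR adjusted p = 0.033), and no other member's call changed. Same-numbered pools had a median r of 0.02 between their deviations from group means (18 pairs, 2 above 0.1). Pools with different numbers had a median r of -0.01 (36 pairs, 3 above 0.1). No pairing was seen, but with 3 pools in a group these values cannot exclude one. Signs of small differences that were never called turned over. Between injured mice, Vim (-0.0030) was 0.0106 with RLE size factors and with DESeq2, and -0.0563 to 0.0577 with a pool left out. Steap4 (0.028) was -0.0302 with library totals alone and -0.22 to 0.30 with a pool left out, and Stat3 (0.0125) was -0.0474 and -0.0246 to 0.0598 in the same way. Without young naïve pool 2, the only naïve pool with over 20 Lcn2 counts, Lcn2 in naïve mice (-0.71) was 0.94 and its difference of injury effects (1.07) was -0.57; with other pools left out they reached -1.88 and 2.24. Without young naïve pool 3, Cd44 in naïve mice (-0.14) was 0.0061, and its lowest value with a pool left out was -0.24. The cause of each was not tested. Depth limits Lcn2 and Steap4 in naïve pools, where counts of 0 to 24 leave their fold changes loose.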
